A study of Mus musculus with 2 samples.

Results

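The cells described here are neutrophils of 4T1 mouse mammary tumours in which S100a8, the calcium-binding protein gene that normally dominates neutrophil RNA, took 5% to under 15% of the cell's molecules. They were chosen by that share together with 5 clauses that removed other cells: under 0.5% Lgals1, at most 1 molecule of Cd3d, Cd3e and Cd3g together, at most 1 of C1qa and C1qb together, at most 1 of Ccr2, under 3 of Chil3. At least 1 molecule of S100a9, the partner of S100a8, was required. This left 1654 of 12018 cells, or 1053 of 8073 cells in the anti-PD-1 pool and 601 of 3945 in the no-anti-PD-1 pool. They are compared with the other cells of the same gate, which spans 6379 cells: 2009 adjacent cells with 15% to under 30% S100a8, 2582 S100a8-rich cells with 30% or more, and 134 Chil3-positive cells with at least 3 Chil3 molecules.

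Neutrophils leave the bone marrow full of granule proteins and of S100A8 and S100A9, and then turn over within days. In inflamed tissue and in tumours they switch on chemokines and interleukin 1 family genes through NF-kappaB and AP-1, and lose the chemokine receptor CXCR2. 4T1 is a mammary carcinoma line of BALB/c origin that drives strong neutrophil production in its host.

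All mice were female BALB/c, 8 weeks of age, with 4T1 cells placed in a mammary fat pad and antibodies given once tumours reached about 70 mm3 on day 7. The anti-PD-1 pool joined mice given anti-PD-1 with mice given anti-PD-1 plus anti-Siglec-E (tags 3 and 4), and the no-anti-PD-1 pool joined isotype control with anti-Siglec-E alone (tags 1 and 2). Each arm had 6 mice, of which 2 tumours went to single cells, and EPCAM-positive and EPCAM-negative cells were recombined 1 to 4. The labels do not tie a tag to an arm, each pool was 1 cartridge, and tags are not replicates, so no value is given for an arm and no test was possible for any comparison; every interval below covers counting error only.

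The assay counted molecules of a fixed panel of immune genes, so values describe the panel and not the whole transcriptome. Cells of the S100a8-low class held 290 to 6502 molecules of shared genes, with a median of 917, and per tag they summed to 942697 and 155948 molecules in tags 3 and 4 and 426757 and 275806 in tags 1 and 2. Levels are given in counts per 1000000 (CPM) of the shared molecules outside the 10 genes of the rule, because the rule fixes the S100a8 share and so the rest of the total. Tags 2 to 4 also counted 72 genes that tag 1 lacked, and for these genes the total includes them. They made up 11.6, 11.3 and 13.8% of the molecules of S100a8-low cells in tags 3, 4 and 2. Their CPM are therefore on a larger total than those of shared genes. Primers differ between panel genes, so levels are compared between cells for the same gene. No cell index was shared between tags of the same cartridge, and 37 were shared between cartridges, 1 of them among the chosen cells.

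The label of low S100a8 neutrophils was checked on genes the rule left out. Csf3r, the receptor for G-CSF and a defining gene of neutrophils, was found in 98.3, 99.3 and 98% of the cells in tags 3, 4 and 2, the tags in which it was measured, at 16450.4, 15796 and 15134 CPM. T cells of these tags, taken as cells with at least 3 Cd3 molecules and under 5% S100a8, should lack the gene and had a molecule of it in 31.6, 23.2 and 26.3% of cells, at 1136, 473 and 625 CPM, with median depths of 833, 830.0 and 1050.0 molecules outside the rule genes, against 796, 840.5 and 807 in S100a8-low cells. Cxcr2, the receptor for CXCL1 and CXCL2, was found in 26.1, 27.2, 27.7 and 28.4% of S100a8-low cells in tags 3, 4, 1 and 2 when each cell was thinned to 500 molecules outside the rule genes, against 48.4, 45.1, 50.3 and 48.1% of S100a8-rich cells. The T cells had Cxcr2 in 0 to 2.88%. Thinning left out 147, 21, 47 and 29 S100a8-low cells, 200, 35, 47 and 36 S100a8-rich cells and 96, 38, 7 and 7 T cells with fewer molecules, in the same order of tags, and before thinning the shares were 36.4, 35.6, 40.4 and 42.5% of S100a8-low cells, 64, 61.9, 63.1 and 64.3% of S100a8-rich cells and 1.32 to 4.87% of the T cells. The group called T cells here and below was chosen on Cd3 and S100a8 alone and also held genes of other cells. Over the 4 tags it had H2-Aa of class II at 14698 to 22522 CPM. Fn1, a tumour cell marker here, was at 4555 to 18358 CPM, in 23.6 to 50% of these cells. How many of them pair a T cell with another cell was not tested. In S100a8-low cells, summed levels of other cells' markers ranged widely. The 6 macrophage markers of the panel gave 98.4 and 86.2 CPM in tags 3 and 4 and 52.6 and 97.8 CPM in tags 1 and 2, and the 17 T cell markers gave 213 and 165 CPM in tags 3 and 4 and 150.03 and 118 CPM in tags 1 and 2. Over the 4 tags, 7 NK cell markers summed to 28.5 to 50.3 CPM, 12 B and plasma cell markers to 34.2 to 495 CPM, 6 mast cell, basophil and eosinophil markers to 63.2 to 73.5 CPM and 3 stromal and endothelial markers to 7.18 to 20.4 CPM. The 8 dendritic cell markers summed to 625 to 978 CPM, most of it Itgax, the integrin CD11c, and the 3 tumour cell markers to 1386 to 4750.4 CPM, most of it Spp1. The 4 monocyte markers summed to 47328 to 56890.5 CPM, of which Cd14, also a gene of neutrophils, gave 47109.8 to 56528 CPM. Genes of class II antigen presentation summed to 696.7 to 3068 CPM. The part of RNA from other cells in these sums was not tested. Pax5 of B cells, Prf1 of cytotoxic cells, Il12b of dendritic cells and Cx3cr1 of monocytes were at 0 in the 4 tags. Other B cell genes were present in some cells of tag 3, where Igkc had 134 molecules, Cd79b 44 and Cd79a 34.

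S100a8 also occurred in cells that should lack it. Its median share was 2.24% in cells with at least 3 Cd3 molecules, 0.402% in cells with at least 3 C1q molecules, 0.496% in cells with at least 2% Lgals1 and 0.843% in cells with at least 3 Cd79 molecules, and 4.17% to 5.30% of each fell in the band from 5% to 15%. Of the cells with at least 3 Cd3 molecules, 55.5% lay below the band and 39.2% above it, with a 75th percentile of 51.8%. In the cells chosen by C1q, Lgals1 and Cd79, 6.27, 3.29 and 4.17% lay above the band. Of 2124 cells in the band, 470 failed a clause: 221 on Lgals1, 211 on S100a9, 104 on Cd3, 67 on Ccr2, 23 on Chil3 and 22 on C1q, with some failing several. How many cells that remain pair a neutrophil with another cell was not tested.

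The RNA of the S100a8-low cells was concentrated in few genes. Fth1, the ferritin heavy chain that stores iron, made up 27.1% of the molecules outside the rule genes, the 5 leading genes 50.1% and the 15 leading genes 71.7%. Fth1 stood at 305953 and 298498 CPM in tags 3 and 4 and at 249733 and 230198 CPM in tags 1 and 2, so both tags of the anti-PD-1 pool lay above both of the other. Behind it came Cxcl2, a chemokine that draws neutrophils through CXCR2, with 97701 and 98609 CPM in tags 3 and 4 and 100161 and 101787 in tags 1 and 2. The tags differed little in Cxcl2 and did not overlap between pools, since the anti-PD-1 tags were the lower ones by a small margin. Cd14, the co-receptor for bacterial lipopolysaccharide, followed with 47109.8 and 49039 and 53581 and 56528 CPM in the same order of tags. Next came the class I gene H2-K1, with 47494, 47337, 39815 and 43629 CPM in tags 3, 4, 1 and 2, and the growth inhibitor Btg1, with 33239, 31766, 36528 and 37258 CPM. Lilrb4a, an inhibitory receptor of myeloid cells, had 25252 and 26042 CPM in tags 3 and 4 and 19459 and 19421 CPM in tags 1 and 2. Gapdh, Fcer1g (the Fc receptor gamma chain), Clec4d, Il1r2, Ccr1 (a receptor for CCL3), Ctsd (a lysosomal protease) and Hmox1 completed the leading 15, between 11176 CPM for Hmox1 in tag 3 and 30922 CPM for Gapdh in tag 1.

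Ccl3, a chemokine for monocytes and T cells that acts through CCR1, had 28387 and 34933 CPM in tags 3 and 4 (95% Poisson intervals 28029 to 28749 and 33958 to 35929) and 31043 and 32589 CPM in tags 1 and 2. Tag 4 was the highest and tag 3 the lowest, so the pools overlapped. Il1rn, which encodes the secreted antagonist of the interleukin 1 receptor, had 28942 and 29899 CPM in tags 3 and 4 and 38162 and 35404 CPM in tags 1 and 2. Nlrp3, the sensor of an inflammasome, had 2528 and 3088 CPM in tags 3 and 4 and 2119 and 2229 CPM in tags 1 and 2. Cd274, which encodes PD-L1, the ligand of PD-1, had 11016 and 12425 CPM in tags 3 and 4 and 10459.8 and 9362 CPM in tags 1 and 2. For Il1rn the anti-PD-1 tags were the lower ones, and for Nlrp3 and Cd274 they were the higher ones, in each case without overlap and by under 1.5-fold between the nearest tags.

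The marker genes were spread unevenly over the cells. The median cell held 9, 13, 13.5 and 13 Ccl3 molecules in tags 3, 4, 1 and 2, while 10.8, 8.22, 6.5 and 6.88% of cells held none and the richest 10% of cells held 54.4, 51.6, 49.2 and 51.4% of all Ccl3 molecules. For Il1rn the richest 10% held 40.5, 37, 38.7 and 35.1%, and for Fth1 in tag 1 27.7%. Ccl4, a close relative of Ccl3, was the most uneven of these: 53.1, 48.6, 45.2 and 46.2% of cells held no Ccl4 molecule and the richest 10% held 74.9, 67, 76.4 and 70.2%.

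When the cells of each tag were ranked by Ccl3, split into 3 equal groups and measured again without Ccl3, some inflammatory genes followed it and others did not. Averaged over the tags, Cxcl2 stood at 152236 CPM in the high Ccl3 group, 81654 in the middle group and 55171 in the low group. Ccl4 stood at 16885, 7279.8 and 4167 CPM in the same groups, and Il1a, which encodes interleukin 1 alpha, at 9454, 5254 and 2970.1. Il1rn spanned less, with 36587, 35269 and 29232 CPM, and so did Tnf, which encodes tumour necrosis factor, with 4678, 4593 and 4411. Neither followed Ccl3 in every tag. Il1rn in tag 1 was at 36476 CPM in the high group and 41238 in the low group, and rose with Ccl3 in the other tags. Tnf was at 3873 against 4098 CPM in tag 3 and 4276 against 5100 in tag 4, and higher in the high group in tags 1 and 2. Genes that averaged lowest in the high Ccl3 group included Cxcr4, the marrow-homing receptor, with 2737, 4321 and 5554 CPM from the high to the low group. Il1r2, the decoy receptor for interleukin 1, had 13930.2, 18202 and 25739.5. The S100a8 share hardly differed, with medians of 9.73%, 9.78% and 9.90% from the high to the low group, whereas median depth was 1167, 885 and 767.5 molecules per cell, and the part of depth in these differences was not tested.

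Set against S100a8-rich cells of the same tag, the S100a8-low cells were higher in some chemokine and interleukin 1 family genes, among them Ccl3, Ccl4, Il1rn and Il1a, and lower in some granule and surface genes, among them Lyz2, Selplg and Cd52. Of 258 genes measured with at least 30 molecules, 9 (3.49%) were at least 2-fold higher in all 4 tags and 21 (8.14%) at least 2-fold lower. The rule chose both classes by S100a8, so this contrast is a description. The median gene differed by -0.14 on the log2 scale. With the rule genes kept in the total the median was 0.65 and the counts 31 higher and 5 lower, since S100a8 alone took 45.1% to 49.9% of molecules in S100a8-rich cells; on molecules per cell they were 5 and 25.

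**Figure D1:**
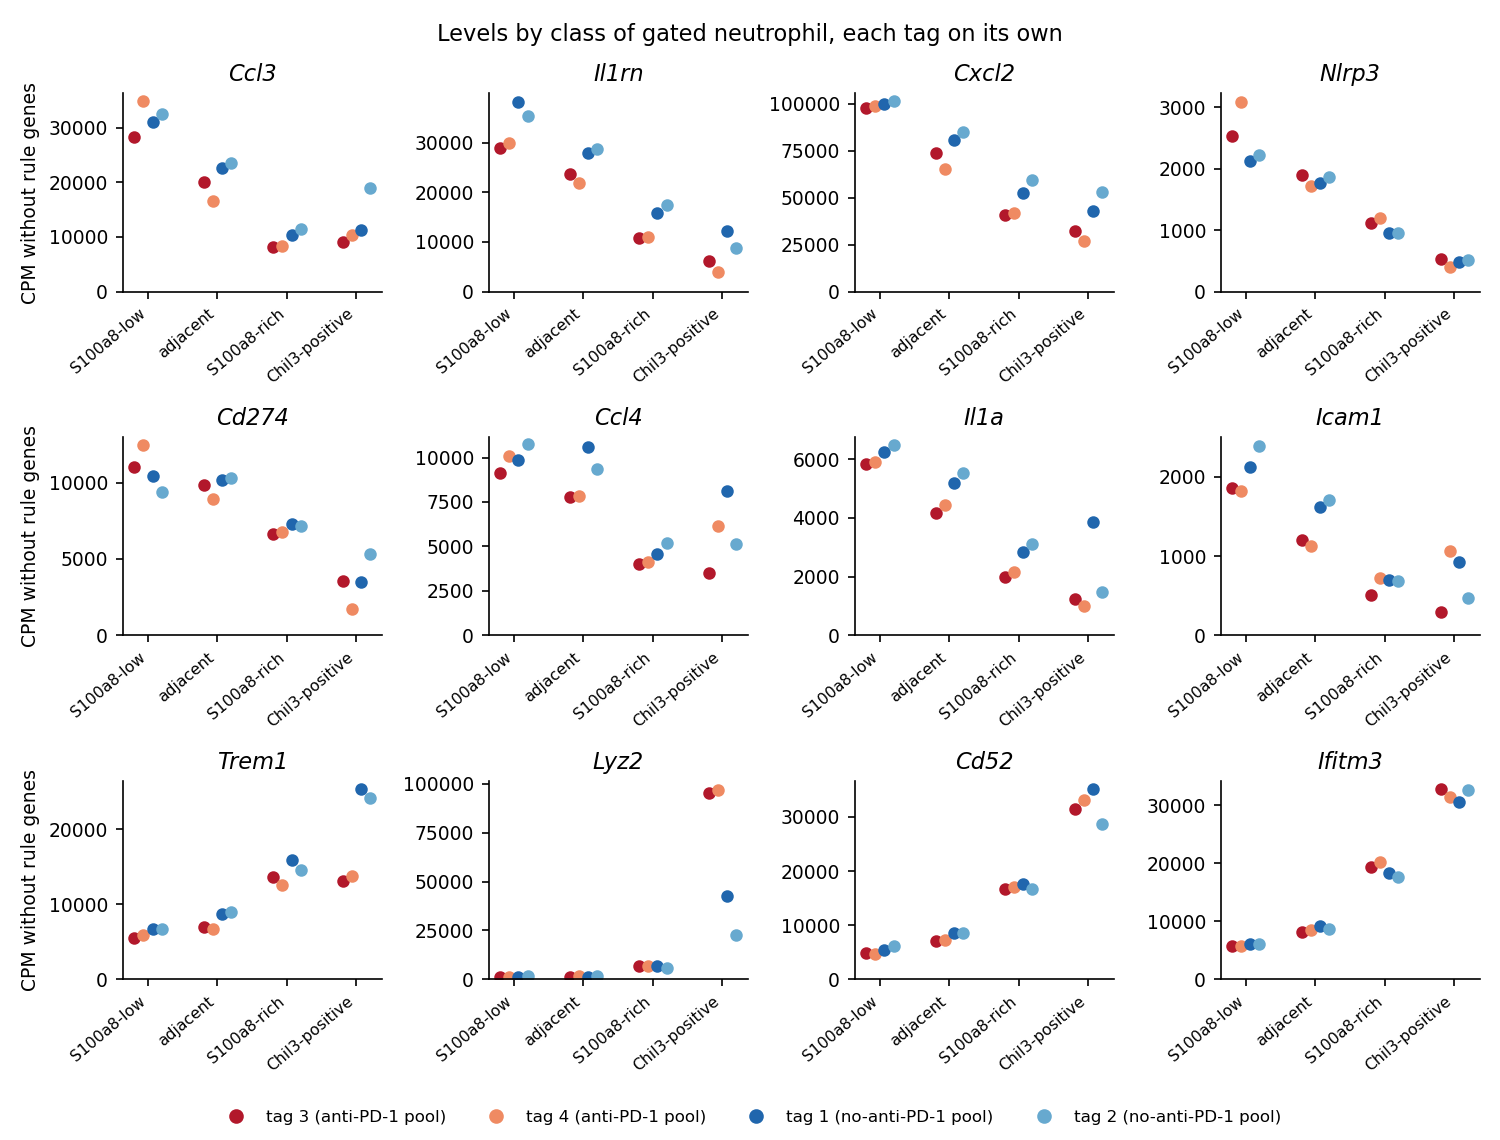
Levels of 12 genes in CPM without the rule genes (vertical axes, from 0) in S100a8-low, adjacent, S100a8-rich and Chil3-positive neutrophils, with 1 point per tag. Ccl3, Il1rn, Cxcl2, Nlrp3, Cd274, Ccl4, Il1a and Icam1 were highest on average in S100a8-low cells, and Trem1, Lyz2, Cd52 and Ifitm3 were lowest there; Ccl3 lay between 28387 and 34933 CPM in S100a8-low cells and between 8194 and 11539.5 CPM in S100a8-rich cells.

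Among the chemokines, 2 of 10 measured genes were called higher and 0 lower, with a median of 0.55 on the log2 scale. Ccl3 had 28387, 34933, 31043 and 32589 CPM in S100a8-low cells of tags 3, 4, 1 and 2, against 8194, 8299, 10366 and 11539.5 CPM in S100a8-rich cells, a mean log2 ratio of 1.74. Every tag of the S100a8-low cells lay above every tag of the S100a8-rich cells, and 31.4 molecules per cell in S100a8-low cells and 10.2 in S100a8-rich cells were counted on average. Ccl4 had 9147, 10091, 9852 and 10772 CPM against 3992, 4135, 4576 and 5169 CPM in S100a8-rich cells, a mean log2 ratio of 1.16. Its call was not firm. Ccl4 was not called with an S100a8 band of 5% to 10%, with means of per-cell fractions, on thinned cells or on molecules per cell. T cells with under 5% S100a8 held Ccl4 at 3437 to 6120.4 CPM and Ccl3 at 3020.2 to 8443 CPM. Cxcl2 had a mean log2 ratio of 1.05 with 0.78 in the lowest tag, and so missed the 2-fold rule in some tags. Cxcl3, another CXCR2 ligand counted in tags 3, 4 and 2 alone, had 7687, 9007 and 12824 CPM in S100a8-low cells, against 2755, 1884 and 2284 CPM in S100a8-rich cells, the 1 gene called higher (1.92%) of 52 measured in those tags.

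The stretch upstream of 4 of these genes is shown because they stood higher together and are known targets of inflammatory transcription factors. Each is the 250 bases before the RefSeq start in GRCm38.p6, read 5′ to 3′ on the strand of the gene; capitals mark matches to the NF-kappaB consensus in Cxcl2 and Cxcl3 and to the AP-1 motif TGANTCA in Il1rn, both searched on both strands. The windows are chr5:90903649-90903898 (plus strand) for Cxcl2, chr5:90785851-90786100 (plus strand) for Cxcl3, chr2:24336610-24336859 (plus strand) for the upstream-most of the Il1rn starts and chr11:83649379-83649628 (minus strand) for Ccl3.
Cxcl2: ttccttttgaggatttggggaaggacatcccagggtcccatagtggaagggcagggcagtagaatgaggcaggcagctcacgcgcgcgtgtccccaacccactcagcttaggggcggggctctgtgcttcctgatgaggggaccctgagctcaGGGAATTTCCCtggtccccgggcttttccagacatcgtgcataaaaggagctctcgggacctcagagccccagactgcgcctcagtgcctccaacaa
Cxcl3: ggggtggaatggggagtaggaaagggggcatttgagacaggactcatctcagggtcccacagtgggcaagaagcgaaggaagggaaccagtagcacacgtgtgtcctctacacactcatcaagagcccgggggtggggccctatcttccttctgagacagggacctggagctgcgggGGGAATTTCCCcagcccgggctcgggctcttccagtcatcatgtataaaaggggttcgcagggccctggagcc
Il1rn: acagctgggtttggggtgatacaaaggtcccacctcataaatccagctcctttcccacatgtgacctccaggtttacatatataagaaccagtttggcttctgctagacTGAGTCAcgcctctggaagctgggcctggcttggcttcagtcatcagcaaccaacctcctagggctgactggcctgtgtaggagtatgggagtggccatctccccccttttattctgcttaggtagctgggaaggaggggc
Ccl3: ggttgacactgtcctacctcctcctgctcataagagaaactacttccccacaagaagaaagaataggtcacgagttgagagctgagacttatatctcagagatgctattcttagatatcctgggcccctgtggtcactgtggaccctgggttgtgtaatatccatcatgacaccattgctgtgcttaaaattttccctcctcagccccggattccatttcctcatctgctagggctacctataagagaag

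Cxcl2 and Cxcl3 held the same run, GGGAATTTCCC, at positions -97 to -87 and -73 to -63 from their starts, which holds 2 overlapping matches, GGGAATTTCC on the strand of the gene and GGGAAATTCC on the other. The window shown for Il1rn held TGAGTCA at -141 to -135, the 2 windows at its other starts held no match, and neither motif was in the Ccl3 window. Of the 9 genes called higher, 8 had a window, of which 2 (Nlrp3 and Tnfrsf9) held the NF-kappaB consensus and 4 (Bcl2a1a, Il1a, Il1rn and Tnfrsf9) the AP-1 motif. Of 184 measured genes with a window, 27 and 22 held them, and among all genes with a RefSeq window 8.23% and 7.82% held them; per window the shares were 7.25% and 6.75%. A match describes letters and is no evidence of binding.

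In the interleukin 1 system, 3 of 9 measured genes were called higher and 0 lower, with a median log2 ratio of 0.18. Il1rn had 28942, 29899, 38162 and 35404 CPM in S100a8-low cells of tags 3, 4, 1 and 2, against 10842, 10911, 15874 and 17326 CPM in S100a8-rich cells. The agonist Il1a had 5850.5, 5918, 6243 and 6469.6 CPM against 2002.9, 2152, 2826 and 3113 CPM in S100a8-rich cells. Both were higher in every tag, with mean log2 ratios of 1.29 and 1.30. Nlrp3 had 2528, 3088, 2119 and 2229 CPM against 1116, 1199, 950.2 and 947 CPM in S100a8-rich cells, a ratio of 1.23. The other members were less apart: Il1b, the secreted agonist that inflammasomes process, had a log2 ratio of 0.30, the decoy receptor Il1r2 -0.27, and Casp1, the inflammasome protease, -0.64. After thinning each cell to 500 molecules, Nlrp3 was found in 57, 61.6, 54.1 and 54.1% of S100a8-low cells in tags 3, 4, 1 and 2, against 37, 38.2, 30.4 and 33.6% of S100a8-rich cells and 8.7 to 13.7% of T cells with little S100a8. The calls were not firm: with means of per-cell fractions Il1a, Il1rn and Nlrp3 were not called, on molecules per cell Il1a and Il1rn were not, and in CPM of the thinned cells Il1rn and Nlrp3 were not.

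Among genes of the NF-kappaB pathway and its targets, 2 of 5 measured were called higher and 0 lower, with a median log2 ratio of 0.35. Icam1, the ligand of leukocyte integrins, had 1864, 1824, 2129 and 2396 CPM in S100a8-low cells, against 506, 719.6, 701 and 689.9 CPM in S100a8-rich cells. Bcl2a1a, an anti-apoptotic BCL2 relative with near-identical copies that the assay may count together, had 4899, 4769, 6785 and 7158 CPM against 1739, 1836, 2772 and 2588 CPM in S100a8-rich cells. T cells with under 5% S100a8 held Icam1 at 1634 to 1899 CPM, below the S100a8-low cells in each tag. They held Bcl2a1a at 9783 to 12091 CPM, above the S100a8-low cells in each tag. Nfkbia, the NF-kappaB inhibitor that the pathway itself induces, had 35285, 34892 and 42256 CPM in S100a8-low cells of tags 3, 4 and 2, against 32095, 32294 and 44951 CPM in S100a8-rich cells. Tags 3 and 4 were higher and tag 2 lower for Nfkbia. Of 6 measured apoptosis and survival genes Bcl2a1a alone was called, and the pro-apoptotic Bax had a mean log2 ratio of 1.01 that reached 0.75 in the lowest tag.

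Tfrc, the transferrin receptor that takes up iron, was called higher with 698, 661, 692 and 758 CPM, against 237, 189.9, 317 and 336 CPM in S100a8-rich cells. The last gene called higher was Tnfrsf9, the costimulatory receptor 4-1BB, with 64, 165, 79 and 106 CPM, against 22, 36.6, 20.6 and 51.5 CPM in S100a8-rich cells. The Tnfrsf9 call rested on few cells, as 2.98, 2.05, 3.67 and 4.05% of S100a8-low cells held a molecule in tags 3, 4, 1 and 2. In tag 4 that share was below the share of S100a8-rich cells, and in tags 3, 1 and 2 it was above. Of the Tnfrsf9 molecules in S100a8-low cells of tags 3 and 4 together, 19.5% lay in 1 cell. T cells with under 5% S100a8 held Tnfrsf9 at 6720.3 to 9494 CPM. The 17 T cell markers summed to 213, 165, 150.03 and 118 CPM in S100a8-low cells, against 148, 293, 202 and 288 CPM in S100a8-rich cells, and the part of T cell RNA in the Tnfrsf9 difference was not tested. Short of the 2-fold rule in at least 1 tag, Il15, a growth factor of NK and memory T cells, had a mean log2 ratio of 1.34, Csf1, the macrophage growth factor, 0.88, the immediate early factor Egr1 0.89 and Vegfa 0.75, while Cd274, at 0.63, was short of it in all 4. The 5 markers given with the label, Ccl3, Il1rn, Cxcl2, Nlrp3 and Cd274, were above the S100a8-rich cells in all 4 tags, as were 47 of the 258 measured genes (18.2%), and 90 (34.9%) were below in all 4.

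Genes of neutrophil granules, maturation and adhesion were lower as a group: 3 of 6 measured were called lower and 0 higher, all 6 were below in all 4 tags, and the median log2 ratio was -1.29. Lyz2, the granule enzyme lysozyme, had 1183, 1113, 945 and 1629.6 CPM in S100a8-low cells of tags 3, 4, 1 and 2, against 6828, 6650.0, 6773 and 5746 CPM in S100a8-rich cells. Selplg, the selectin ligand PSGL-1, had 548, 517, 384 and 326 CPM against 1909.6, 2166, 1457 and 1397 CPM in S100a8-rich cells. Trem1, an activating receptor that amplifies inflammation, had 5449, 5846, 6749 and 6706 CPM against 13626, 12527, 15949.9 and 14636 CPM in S100a8-rich cells. Tags of the same class differed, as for Lyz2 with 945 to 1629.6 CPM in S100a8-low cells, but the classes did not overlap for any of these genes. Mmp9, the gelatinase of tertiary granules, and Itgam, the integrin CD11b, had log2 ratios of -1.37 and -0.64 and were not called; with the rule genes kept in the total Selplg and Trem1 were no longer called.

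Of 8 measured interferon response genes, 2 were called lower, both members of the antiviral IFITM family. Ifitm3 had 5715, 5709.7, 6022 and 5976.7 CPM, against 19348, 20207, 18322 and 17594 CPM in S100a8-rich cells, and Ifitm2 had 11046, 10629, 12576 and 12626 CPM, against 27616, 28276, 29208 and 28434 CPM. Cxcl10, a chemokine that interferon induces strongly, had a log2 ratio of -0.02. Among checkpoint genes 2 of 10 were called lower: Cd33, a Siglec receptor of myeloid cells, with 1026, 1264, 969 and 949 CPM against 3343, 3285, 3075 and 2962 CPM in S100a8-rich cells, and Nt5e, the enzyme CD73 that makes adenosine, with 122, 129, 182 and 253 CPM against 417, 489.8, 876 and 642 CPM. With the rule genes kept in the total, none of Ifitm2, Ifitm3, Cd33 and Nt5e was called, and Ifitm2 was also not called under TMM scaling. Siglece, which encodes the antibody target Siglec-E and was counted in tags 3, 4 and 2, had 444, 371 and 362 CPM in S100a8-low cells, against 1150.4, 1239.7 and 786 CPM in S100a8-rich cells. It was the 1 gene called lower (1.92%) of the 52 measured in those tags. Csf3r had 16450.4, 15796 and 15134 CPM against 28996, 28009 and 25327 CPM in S100a8-rich cells of the same tags. Ccrl2, an atypical receptor that binds chemerin, ran the other way with 19975, 18970.3 and 27249.9 CPM against 9486, 11177 and 14304 CPM in S100a8-rich cells, and reached the 2-fold rule in 1 of these tags alone. The formyl peptide receptor gene Fpr1 had 1195, 1144 and 2026 CPM against 2390.4, 2292 and 2986 CPM, and Nos2, the inducible nitric oxide synthase, had 2127, 3130.3 and 2589 CPM against 3219, 3609.7 and 3697 CPM in S100a8-rich cells.

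Further genes called lower were the lymphoid and myeloid surface glycoprotein gene Cd52, with 4927, 4711, 5346 and 6201 CPM against 16608, 17022, 17634 and 16757 CPM in S100a8-rich cells, and Mgst1, a membrane-bound glutathione transferase, with 599.7, 546, 711 and 746 CPM against 3546, 3368, 3143 and 3096 CPM. With the rule genes in the total Mgst1 kept its call and Cd52 did not. Bin2 and Fam65b, both linked to the leukocyte cytoskeleton, had mean log2 ratios of -2.13 and -1.85. Slc7a7, an amino acid transporter, had the lowest mean ratio, -2.94, at levels of 4.07 to 21.5 CPM in S100a8-low cells. Cxcr2 had 678, 582, 661 and 949 CPM against 1681, 1519, 1791 and 1864 CPM in S100a8-rich cells, a mean log2 ratio of -1.28 that stopped short of the 2-fold rule in 1 tag. Genes that were alike in both classes included Cxcr4, with a log2 ratio of 0.02, and Clec4d, a C-type lectin receptor for fungal and mycobacterial ligands, with 0.00.

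**Figure D2:**
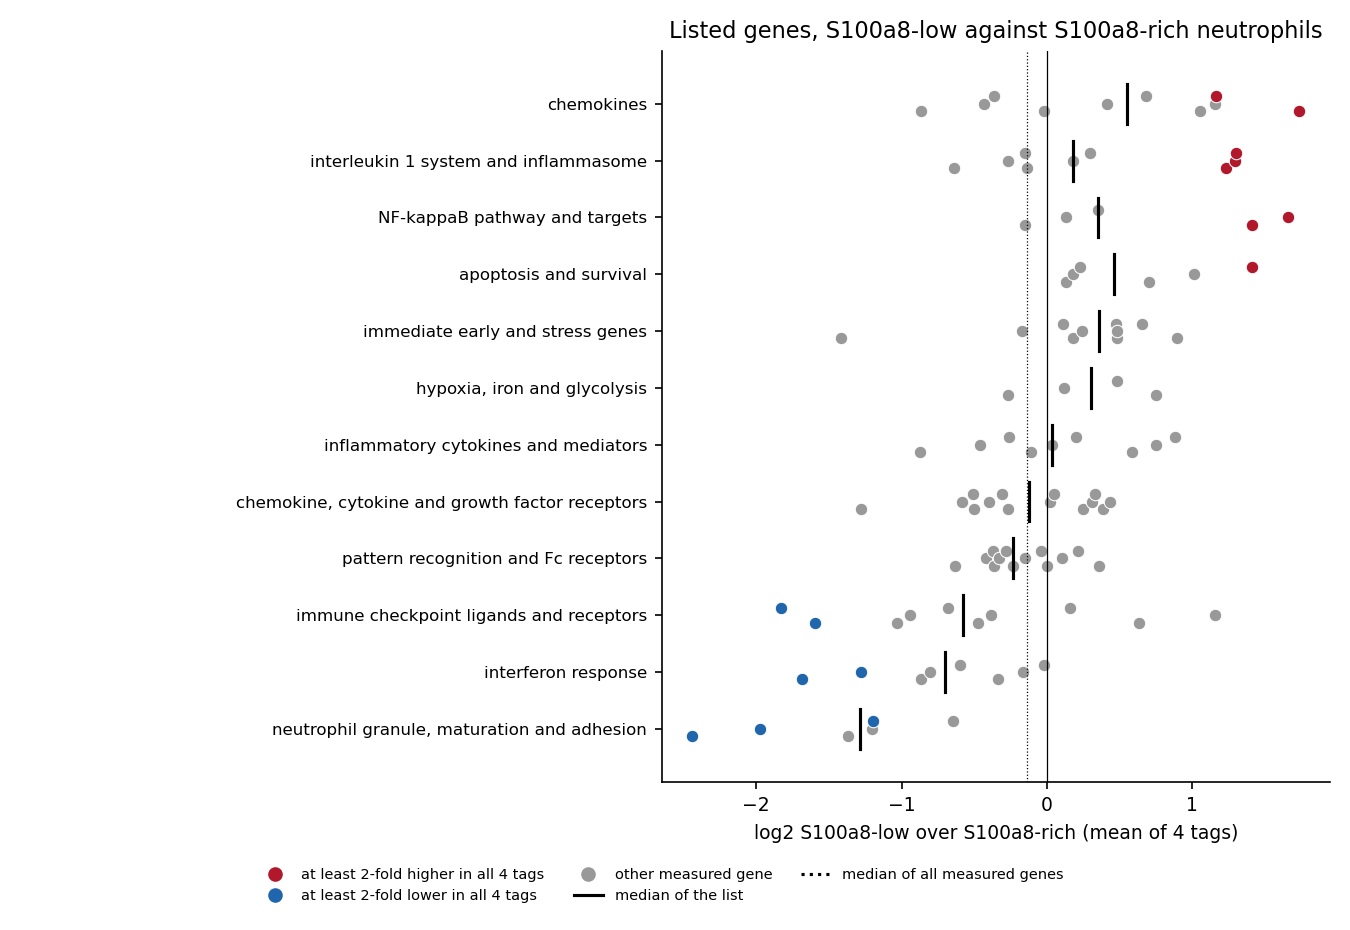
Log2 ratio of S100a8-low over S100a8-rich neutrophils (horizontal axis, mean of 4 tags) for the measured genes of 12 gene lists, with 1 point per gene, a bar at each list's median and a dotted line at the median of all measured genes, -0.14. Red points are the genes called higher and blue points those called lower. The chemokine list has its median at 0.55. The granule, maturation and adhesion list, with its median at -1.29, has the points furthest left.

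Of the other lists, the markers of mast cells, basophils and eosinophils had 1 measured gene, Kit, called lower, and 1 of 7 neutrophil markers, Trem1, was called lower. The 10 measured immediate early and stress genes had a median log2 ratio of 0.36, 4 hypoxia, iron and glycolysis genes 0.30, 14 receptor genes -0.12, 13 pattern recognition and Fc receptor genes -0.24 and 9 inflammatory cytokine genes 0.03, none of them called. Hmox1, the haem-degrading enzyme, had 11176, 11592, 13121 and 13803 CPM in S100a8-low cells, against 8129.9, 7593, 10500.0 and 9449 CPM in S100a8-rich cells. Tnf had 3973, 4582, 4277 and 4909 CPM against 4800.5, 5511, 5425 and 5519 CPM in S100a8-rich cells, and was lower in every tag.

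The class had no sharp border with its neighbours. Against the adjacent cells, 0 of 250 measured genes (0%) were called higher and 0 (0%) lower. Just below the lower threshold, 177 cells with 4% to 5% S100a8 held Ccl3 at 37950.3 CPM and Il1rn at 33687 CPM, and 158 cells with 5% to 6% held them at 37868 and 33432 CPM. Just below the upper threshold, 166 cells with 14% to 15% held Ccl3 at 27605 CPM and Cxcl2 at 96537 CPM, and 166 cells with 15% to 16% held them at 26870.3 and 86637 CPM. Along the S100a8 share, Il1rn averaged 28937, 34396 and 35019 CPM in cells with 0% to 1%, 1% to 3% and 3% to 5%, 34622, 33589.5, 33110.1 and 31275 CPM in the 4 steps of the S100a8-low band, and 27960.3, 23885, 18770.2 and 10435 CPM in cells with 15% to 20%, 20% to 30%, 30% to 40% and over 40%. Between 1% and 12.5% it stayed within 33110.1 to 35019 CPM, and above that it declined at each step; the step from 0% to 1% held as few as 10 cells in a tag. Ifitm3 ran the other way, with 5084, 5948, 5385 and 6683 CPM in the steps of the band and 7357, 9371, 12499.9 and 23044 CPM in those above it. Ccl3 averaged 30228, 38877 and 37191.5 CPM in the steps below the band, from the lowest up, and 28914 to 37578 CPM within it. Cxcl2 averaged 81508, 115871 and 109818 CPM in the same steps below the band, and 92779 to 110403 CPM within it. Neither gene was particular to the band.

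**Figure D3:**
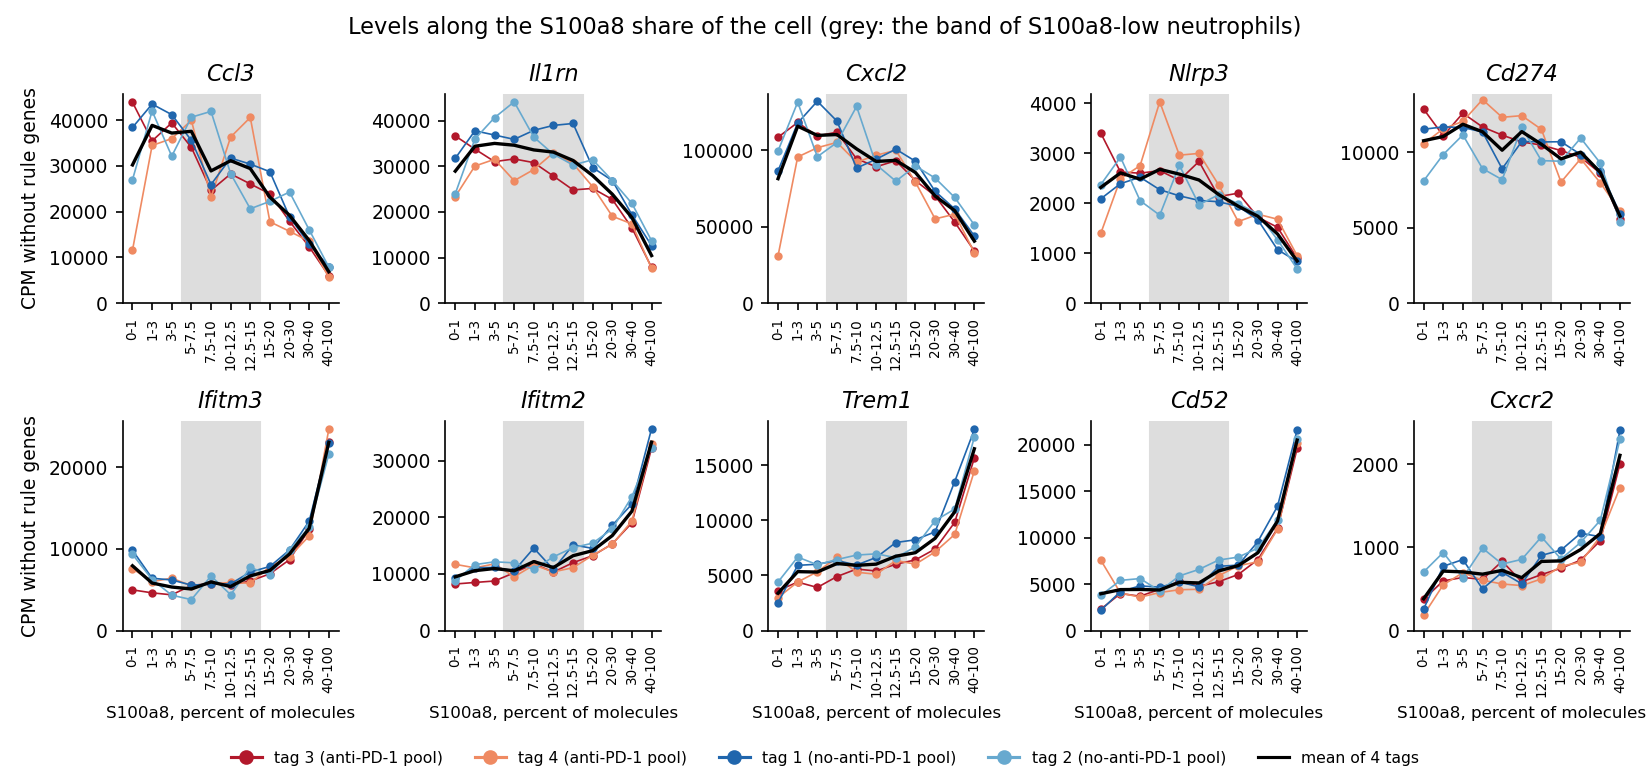
Levels of 10 genes in CPM without the rule genes (vertical axes, from 0) over steps of the S100a8 share of the cell (horizontal axes, percent of molecules, steps unequal in width), with a thin line per tag, a black line for the mean and the S100a8-low band in grey. The upper row declines to the right of the band, where Ccl3 reached 6881 CPM in cells with over 40% S100a8, and the lower row climbs, where Ifitm3 reached 23044 CPM.

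Against the Chil3-positive cells, which carry genes of immature neutrophils, 6 of 221 measured genes (2.71%) were called higher and 38 (17.2%) lower. Those cells numbered 97 in the anti-PD-1 pool and 37 in the other. Lyz2 had 1183, 1113, 945 and 1629.6 CPM in S100a8-low cells of tags 3, 4, 1 and 2, against 95432, 96670.0, 42834 and 22617 CPM in Chil3-positive cells. Il1rn had 28942, 29899, 38162 and 35404 CPM in S100a8-low cells, against 6180.3, 3989, 12242 and 8779.5 CPM in Chil3-positive cells, so each tag of S100a8-low cells lay above its Chil3-positive cells. Cd274 had 11016, 12425, 10459.8 and 9362 CPM against 3573, 1729.5, 3507 and 5347 CPM in Chil3-positive cells.

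S100a8-low cells made up a smaller share of the recombined cells in the anti-PD-1 pool, except under the stricter Lgals1 limit given below. They were 13.7% of all cells in tag 3 (Clopper-Pearson 95% interval 12.9% to 14.6%) and 10.05% in tag 4 (8.55% to 11.7%), against 14.6% in tag 1 (13.2% to 16.03%) and 16.3% in tag 2 (14.5% to 18.3%). The mean of the anti-PD-1 tags was 11.9% and that of the other tags 15.4%, a difference of -3.56 percentage points, although the intervals of tags 3 and 1 overlapped. Among gated neutrophils the shares were 24.6% in tag 3 (23.2% to 26.0%) and 22.5% in tag 4 (19.3% to 25.9%), against 28.4% in tag 1 (25.9% to 31.0%) and 31.0% in tag 2 (27.8% to 34.3%), a difference of -6.13 points. S100a8-rich cells moved the other way, with 43.1% of gated neutrophils in the anti-PD-1 pool and 35.2% in the no-anti-PD-1 pool. With 1 cartridge per pool, treatment and cartridge cannot be told apart, nor can fewer such cells be told from more S100a8 per cell.

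**Figure D4:**
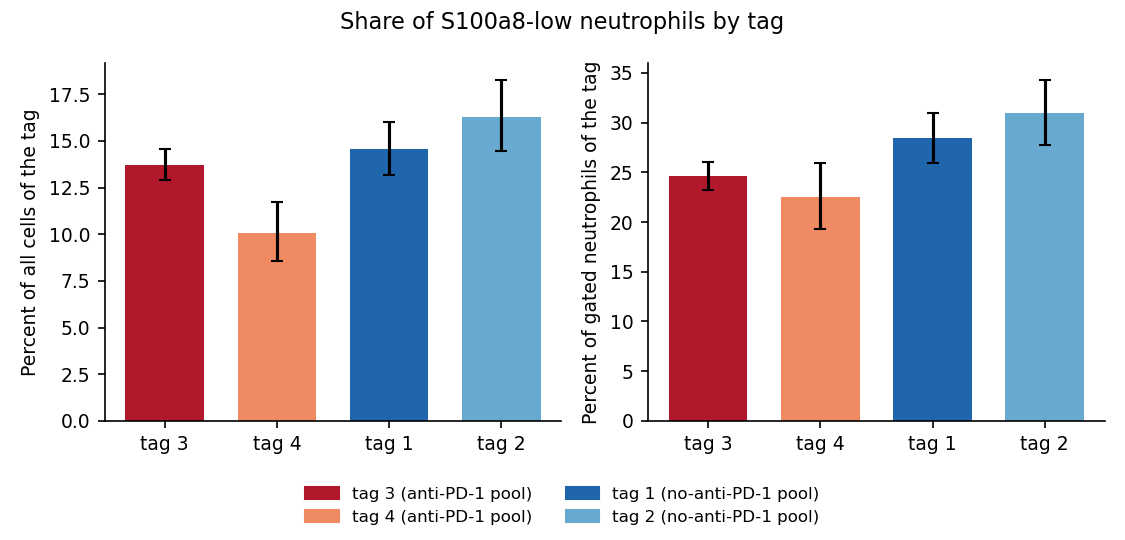
S100a8-low neutrophils as percent of all cells (left) and of gated neutrophils (right) in each tag, with exact 95% binomial intervals as bars. On the right, tags 3 and 4 of the anti-PD-1 pool stand at 24.6% and 22.5%, below tags 1 and 2 at 28.4% and 31.0%.

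The Lgals1 clause bore on the share of all cells. Chosen cells with over 0.2% Lgals1 were 7.94% and 8.90% of the class in tags 3 and 4, against 34.2% and 27.9% in tags 1 and 2, and with the clause set at that value the difference in the share of all cells was 0.215 points in place of -3.56. The difference among gated neutrophils kept its sign. The median S100a8 share of all gated neutrophils was 27.0% and 27.8% in tags 3 and 4, against 24.1% and 23.0% in tags 1 and 2.

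Within the S100a8-low cells few genes differed between the pools. Of 201 measured genes, 3 (1.49%) were called higher under anti-PD-1 and 6 (2.99%) called lower, with both tags beyond both of the other pool and the nearest tags at least 1.5-fold apart. Without the fold limit, 32 genes (15.9%) lay above in both anti-PD-1 tags and 84 (41.8%) below, and the median gene differed by -0.17 on the log2 scale. With Fth1 and Ccl3 also left out of the total, the median gene differed by -0.04. The part of Fth1 in the excess of lower genes was not tested. The split of calls moved with the scale: TMM scaling gave 3 higher and 3 lower, levels relative to the median gene 4 and 3, and molecules per cell 3 and 15.

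Of the 6 genes lower in the anti-PD-1 pool, Cxcl1 and Spp1 encode secreted factors. Cxcl1, a CXCR2 ligand, had 480.0 and 251 CPM in tags 3 and 4 and 1237 and 815 CPM in tags 1 and 2, a log2 ratio of -1.49, with 13.5% of its molecules in 1 cell of tag 1. Spp1, which encodes the matrix cytokine osteopontin, had 1552 and 934 CPM in tags 3 and 4 and 2556 and 4225 CPM in tags 1 and 2, with 5.08% of its molecules in 1 cell. Without that cell, or with means of per-cell fractions, Spp1 was not called. Both were far higher in cells with at least 2% Lgals1, called Lgals1-high cells: Cxcl1 ranged over 12311 to 25473 CPM and Spp1 over 44167 to 56979 CPM there. In S100a8-rich cells the log2 ratios of these genes were -1.48 and -1.16, and in adjacent cells -0.05 and -1.17. Of the tumour cell markers, Lmna, Fn1 and Spp1 summed to 1856 and 1386 CPM in tags 3 and 4 and to 3019 and 4750.4 CPM in tags 1 and 2, while Epcam, counted in tags 3, 4 and 2, had 135, 50.3 and 75.9 CPM, against 6114 to 7246 CPM in Lgals1-high cells. The part of RNA from other cells in these differences was not tested.

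Pcna, the sliding clamp of DNA replication, had 430.3 and 381 CPM in tags 3 and 4 and 808 and 831 CPM in tags 1 and 2. S100a10, a partner of annexin A2, had 187 and 151 CPM in tags 3 and 4 and 300.1 and 285 CPM in tags 1 and 2, and Tmem97, the sigma-2 receptor, had 41.5 and 7.18 and 73.7 and 69.3 CPM in the same order, with 1 molecule in tag 4. These genes too were higher in other cells, with S100a10 at 15379 to 23002 CPM, Pcna at 2126 to 3600.0 CPM and Tmem97 at 399 to 796 CPM in T cells with under 5% S100a8. Ccr10, the receptor for the skin and mucosal chemokines CCL27 and CCL28, was different in this respect. It had 394 and 395 CPM in S100a8-low cells of tags 3 and 4 and 676 and 786 CPM in those of tags 1 and 2, with 3.77 to 52.2 CPM in the T cells and 22.6 to 43.1 CPM in Lgals1-high cells. Its log2 ratio was -0.89 in S100a8-low cells, -0.31 in adjacent cells and -0.59 in S100a8-rich cells.

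The 3 genes higher in the anti-PD-1 pool rested on few molecules. Ighm, the immunoglobulin mu heavy chain, had 171, 6, 3 and 4 molecules in tags 3, 4, 1 and 2, and 85 of the 171 in tag 3 came from 1 of 9 cells. B and plasma cell markers summed to 495 and 43.1 CPM in tags 3 and 4. In tags 1 and 2 the sums were 34.2 and 102 CPM. Pax5 was at 0 in the 4 tags, but other B cell genes were present in tag 3. Igkc had 134 molecules there, 71 of them in 1 cell, Cd79b 44 in 2 cells and Cd79a 34 in 4 cells. The rule held no clause on B cell genes. Gzma, a granzyme of T and NK cells, had 19, 5, 4 and 2 molecules in tags 3, 4, 1 and 2. T cells with under 5% S100a8 held it at 4633 to 10798 CPM. Atf6b, a relative of the unfolded protein sensor ATF6, had 60, 11, 14 and 10 molecules and 71.1 and 79 CPM in tags 3 and 4, against 36.8 and 40.7 CPM in tags 1 and 2. S100a8-rich cells of tags 3, 4, 1 and 2 had Atf6b at 160, 170, 113 and 103 CPM. In the same cells Ighm was at 61.6, 110, 8.24 and 17.2 CPM. Gzma was at 20.1, 6.66, 14.4 and 30.9 CPM there, and the pools overlapped.

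**Figure D5:**
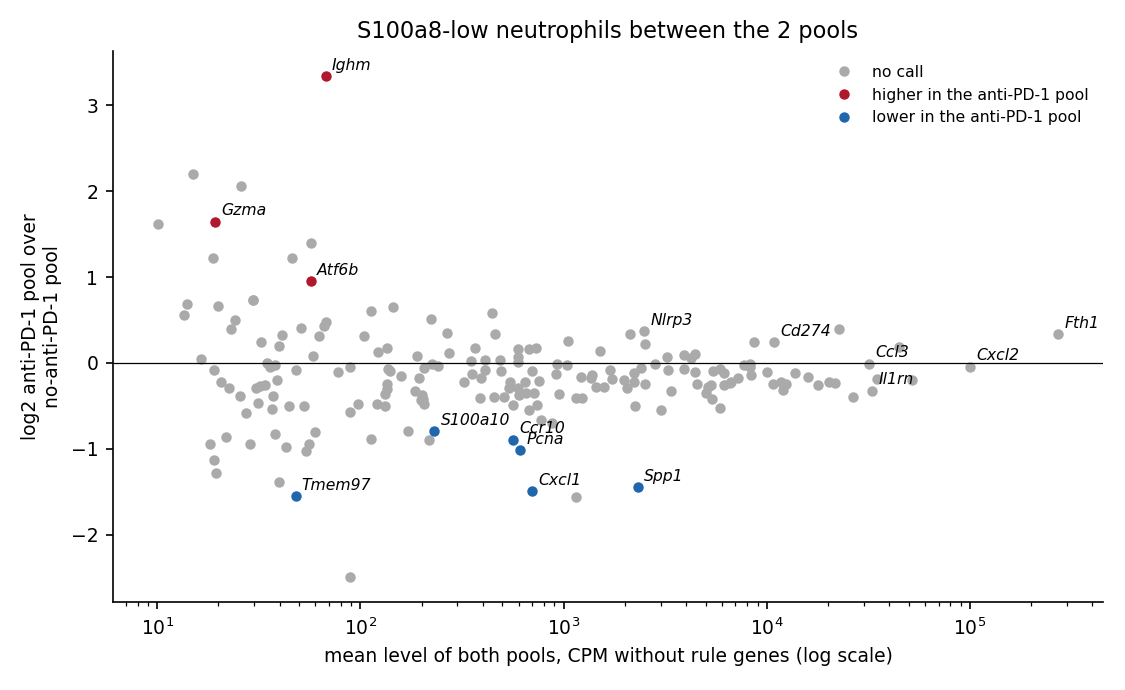
Log2 ratio of the anti-PD-1 pool over the no-anti-PD-1 pool in S100a8-low neutrophils (vertical axis) against the mean level of both pools (horizontal axis, CPM without the rule genes, log scale), with 1 point per measured gene. Called genes are coloured and lie at mean levels below those of the named abundant genes; Ccl3 and Cxcl2, with ratios of -0.01 and -0.04, sit near 0.

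The markers given with the label differed little between the pools, with log2 ratios of -0.01 for Ccl3, -0.04 for Cxcl2, -0.32 for Il1rn, 0.37 for Nlrp3 and 0.24 for Cd274. Il1b had 539 and 661 CPM in tags 3 and 4 and 1003 and 896 CPM in tags 1 and 2, without overlap but with the nearest tags 1.36-fold apart. Its levels were 79.1 to 137 CPM in the T cells, and its log2 ratio between the pools was -0.66 in S100a8-low cells, -0.93 in adjacent cells and -0.90 in S100a8-rich cells. Between the pools, adjacent cells had 6 of 217 genes (2.76%) higher and 8 (3.69%) lower under anti-PD-1, and in S100a8-rich cells 3 of 229 (1.31%) and 21 (9.17%). Whether the pools differed more in those classes was not tested.

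Tags of the same pool gave a measure of how far 2 populations of 1 cartridge differ, though they also carry different arms. Between tags 4 and 3, 3 of 175 genes (1.71%) were at least 2-fold higher in tag 4 and 13 (7.43%) at least 2-fold lower. Arg1, an arginine-degrading enzyme of suppressive myeloid cells, had 7.18 CPM in tag 4 and 235 CPM in tag 3, and 60.3% of its molecules in these tags lay in 1 cell. The chemokine gene Ccl2 ran the other way, with 481 CPM in tag 4 and 115 CPM in tag 3. Between tags 2 and 1, 5 of 159 genes (3.14%) were at least 2-fold higher in tag 2 and 1 (0.629%) lower. The class II gene H2-Aa had 2412 CPM in tag 2 and 1013 CPM in tag 1, with 20.8% of its molecules in 1 cell. The group called T cells with under 5% S100a8 held H2-Aa at 14698 to 22522 CPM, with a molecule in 19.5 to 43.4% of cells.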

How the data were processed

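Cells of 4T1 tumours were profiled with a targeted immune response panel for mouse on BD Rhapsody. Per the file headers, the deposited tables hold counts of molecules per cell and target after error correction (DBEC), made by version 1.12.1 of the vendor's targeted pipeline. The submitters' processing notes also name Seurat 3.2.0; the aligner and genome build remain not given in the sources used here. The reference of tag 1 (397 targets) was not that of the other tags (468 genes), so 396 shared genes were used, 386 of them outside the rule, and 72 more where tags 2 to 4 were read alone.

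The S100a8 share was taken over all shared molecules of a cell. Molecules were then summed per tag and class (Python 3.11.15, pandas 2.3.3, scipy 1.17.1) and scaled to CPM without the rule genes. For the genes of tags 2 to 4 alone, the total also held those genes. No test was made, as each pool is 1 cartridge and tags are not replicates; exact Poisson and Clopper-Pearson 95% intervals cover counting error only. Between the pools a gene was called where both tags of a pool lay beyond both of the other by at least 1.5-fold, between classes where it differed at least 2-fold in all 4 tags, and within a pool at 2-fold, each with at least 30 molecules. A tag at 0 was set to 3 counts in ratios. A pool value is the mean of its 2 tags. The calling script was checked on simulated Poisson counts, for the pools with levels relative to the median gene, unlike the main pool calls. Spread between cells was not simulated. TMM factors came from edgeR 4.0.16 on the deposited counts. Doublets were not called.

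The members, gene lists and calling rules were chosen with earlier results of these data known. Named genes were the markers, the 15 most abundant genes, the largest class ratios among widely detected genes, the called pool genes, and called or abundant list members. Tnfrsf9, Slc7a7, Il1b, Arg1, Ccl2 and the genes of tags 2 to 4 alone were named after their values were seen. A gene of the granule and adhesion list is not reported here and was left out of that list. Upstream sequences are RefSeq's (GRCm38.p6).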

Additional observations from a re-analysis of the deposited data

How the results depend on the processing

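No paired analysis was possible because the samples carry no replicate numbers and each group is 1 cartridge. The share difference of -3.56 points of all cells was -1.10 with an S100a8 band of 5% to 10% and 0.215 with the stricter Lgals1 limit, and leaving out 1 tag at a time gave -5.39 to -1.73. Among gated neutrophils the difference of -6.13 was -1.74 with the narrow band, and kept its sign in every alternative run.

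The count of 3 genes higher in the anti-PD-1 pool was 1 with the narrow band, where none of the 3 kept its call, 1 with the stricter Lgals1 limit or at least 100 molecules, where Ighm kept its call, 8 with no minimum, and 4 to 10 with 1 tag left out. The count of 6 lower was also 6 with the narrow band, where Spp1 alone kept its call, 11 with a band of 3% to 15%, 3 under TMM scaling or relative to the median gene, 0 with the nearest tags 2-fold apart, 15 on molecules per cell (added after seeing the data), and 10 to 25 with 1 tag left out, which makes the call easier by construction. Without the cell that held most of each gene, also added later, Gzma, Atf6b, Spp1 and Tmem97 lost their calls. The median gene stood at -0.17 on the log2 scale, and at -0.01 under TMM scaling.

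Against S100a8-rich cells, the count of 9 higher was 5 with the narrow band, with means of per-cell fractions, after thinning to 500 molecules or on molecules per cell, 31 with the rule genes in the total, 14 at 1.5-fold and 0 against adjacent cells. The count of 21 lower was 5 with the rule genes in the total, 40 at 1.5-fold and 0 against adjacent cells. Set against adjacent cells, Kit and Cd38 turned to 0.16 and 0.45 on the log2 scale. After thinning, Ccl3, Icam1, Bcl2a1a and Il1a kept their calls. Of the single-gene values under all alternatives, 594 stayed within counting error of the main value, 283 moved and 2 reversed. The 594 include runs that changed a calling threshold alone. Such runs leave the value of a gene as it was, so they say nothing on its stability.

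Depth limits rare genes: called pool genes such as Gzma and Tmem97 rest on under 100 molecules.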
